A study of Mus musculus with 6 samples.

Results

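The genes described here are 10 transcripts of the interferon-gamma response, measured in mouse neurofibromas with and without miR-155. They were chosen by symbol from the 24421 gene symbols of the count table: 8 interferon-inducible GTPases (Gbp2, Gbp3, Gbp5, Gbp7, Iigp1, Igtp, Irgm1 and Irgm2) and the 2 chains of the interferon-gamma receptor (Ifngr1 and Ifngr2). All 10 were in the table, each with at least 111 reads in every tumour, and all 10 passed the filter on low counts. Total-RNA libraries came from 3 tumours of the group called miR155KO_Nf1KO here (MiRNC149, MiRNC640 and MiRNC670, labelled Mir-155 KO) and 3 from the Nf1KO group (tumours Nf803, Nf809, Nf827, labelled Nf1 -/-). Every tumour was a neurofibroma, a benign growth of the nerve sheath, from C57BL/6J mice of the genotype Nf1fl/fl; DhhCre, so both groups lost Nf1, a brake on Ras, in cells where the Dhh promoter of the Schwann cell lineage drives Cre. The labels do not say in which cells miR-155 was deleted, give no ages, and report that the mice received no drug. The study set the groups side by side to look for possible targets of miR-155.

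Interferon-gamma, a cytokine made mainly by T cells and natural killer cells, binds a receptor built from Ifngr1, which holds the ligand, and Ifngr2, which is needed for signalling. Signalling from the receptor, through the kinases Jak1 and Jak2, acts on genes that carry GAS elements, Irf1 among them, and factors of the Irf family bind ISRE elements. Guanylate-binding proteins (Gbp) and immunity-related GTPases (Irg) are among the genes that answer most strongly, in macrophages and also in endothelial cells and fibroblasts, and they attack the vacuoles in which intracellular pathogens live. Type I interferons also induce many of them. Neurofibromas hold Schwann cells, fibroblasts, macrophages, mast cells and vessels besides the nerve itself.

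Column totals ran from 13061129 to 16333181 reads. Mir155hg, the transcript that carries miR-155 (chromosome 16, 84703167 to 84715245 on GRCm38), had 5, 3 and 1 reads in the miR155KO_Nf1KO tumours and 57, 66 and 71 in Nf1KO, as the group labels state. Nf1 itself averaged 341 ± 43.3 CPM without miR-155 and 324 ± 33.2 CPM with it, a level that includes reads from cells that keep the gene. Skeletal muscle transcripts set single tumours apart, with a summed level of 10 marker genes of 2764 CPM (each gene's share of a library's scaled reads, as counts per 1e6) in MiRNC670 and 3271 in Nf809 against 6.36 to 501 in the other 4. Adipocyte markers summed to 2399 CPM in MiRNC640 and to between 93.4 and 662 CPM in the other tumours. The Schwann cell markers Sox10 and S100b were present in every tumour. In bulk tissue, fewer cells of a type and less RNA per cell cannot be told apart. Nothing states that each tumour came from its own mouse, so the p-values below measure the spread between these samples, which may be technical.

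All 10 transcripts were lower in the tumours without miR-155, by 1.49-fold (Gbp7) to 2.88-fold (Gbp3), and in each of the 10 the lowest Nf1KO tumour was above the highest miR155KO_Nf1KO tumour. Over all 15604 genes tested, 16.3% were lower with no overlap between the groups. At an adjusted p under 0.05 by the edgeR quasi-likelihood test, 4 of the 10 fell, namely Gbp3, Gbp5, Irgm1 and Ifngr2, where 4.74% of all genes tested fell. None rose, against 5.22% of all genes. The median log2 fold change was -0.97 over the 10 genes and 0.01 over all genes tested. The other 6 members had an unadjusted p under 0.05 and adjusted p-values from 0.0531 (Gbp2) to 0.0994 (Irgm2) by edgeR, so they are given below as values.

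**Figure D1:**
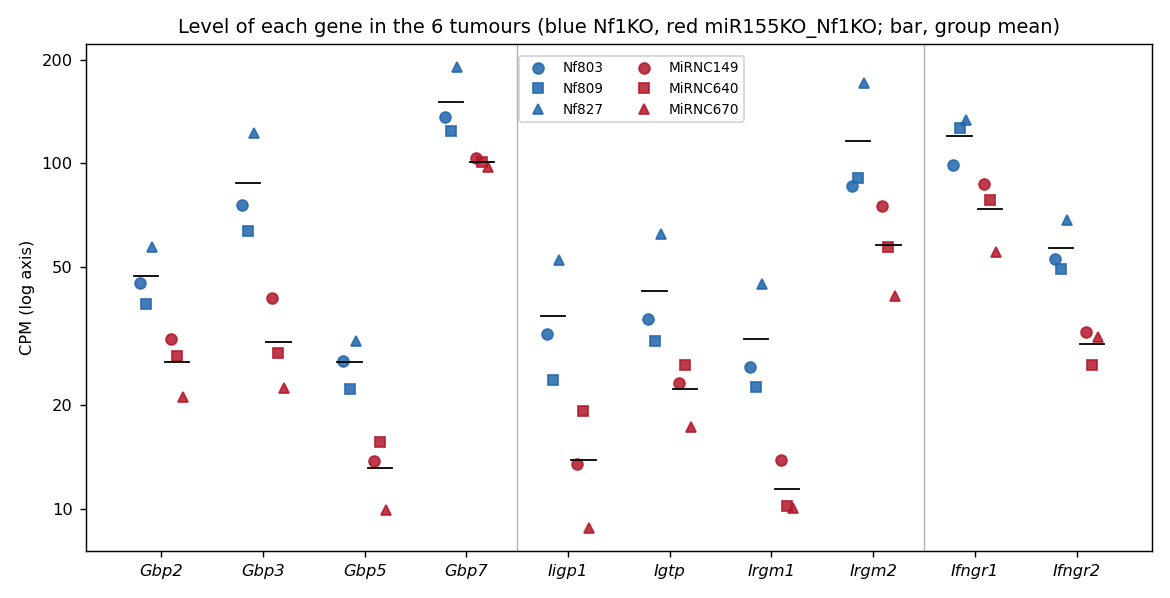
Level of each of the 10 genes in CPM (vertical log axis) in the 3 Nf1KO tumours (blue) and the 3 miR155KO_Nf1KO tumours (red), with 1 point per tumour and a bar at each group mean. The blue points lie above the red points for every gene, and Nf827 (blue triangle) is the highest tumour of all for every gene.

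Gbp3, a guanylate-binding protein encoded on chromosome 3 (142560026 to 142573209), had the largest fold difference of the members. It stood at 76.0, 63.9 and 123 CPM in Nf803, Nf809 and Nf827 and at 40.6, 28.2 and 22.4 CPM in MiRNC149, MiRNC640 and MiRNC670. Its means were 87.5 ± 31.1 CPM (SD, n = 3) in Nf1KO and 30.4 ± 9.31 CPM in miR155KO_Nf1KO. The log2 fold change was -1.52 (SE 0.31, 95% interval -2.25 to -0.79, edgeR adjusted p = 0.0302).

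Gbp5, which promotes inflammasome assembly (chromosome 3, 142493978 to 142522344), stood at 26.8, 22.2 and 30.7 CPM in Nf803, Nf809 and Nf827. Its levels in MiRNC149, MiRNC640 and MiRNC670 were 13.8, 15.6 and 9.90 CPM. The highest and lowest tumours differed by 1.38-fold within Nf1KO and 1.58-fold within miR155KO_Nf1KO, and the nearest tumours of the groups by 1.42-fold. Gbp5 averaged 26.5 ± 4.24 CPM in Nf1KO and fell to 13.1 ± 2.91 CPM, with a log2 fold change of -1.02 (SE 0.23, edgeR adjusted p = 0.0371).

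Gbp2, which is recruited to pathogen vacuoles (chromosome 3, 142620602 to 142638008), was at 45, 39.2 and 57.4 CPM in the Nf1KO tumours in the same order. It was at 30.9, 27.6 and 21.1 CPM in MiRNC149, MiRNC640 and MiRNC670. The groups did not overlap, but the log2 fold change of -0.83 (SE 0.21) missed the threshold by edgeR (adjusted p = 0.0531). It passed with upper quartile scaling (adjusted p = 0.0493).

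Gbp7, another guanylate-binding protein (chromosome 3, 142530342 to 142550149), differed least. Its levels were 137, 124 and 190.3 CPM in Nf803, Nf809 and Nf827 and 103, 101 and 97.3 CPM in MiRNC149, MiRNC640 and MiRNC670. The miR155KO_Nf1KO tumours lay within 1.06-fold of each other, while Nf827 stood well above the other Nf1KO tumours. The log2 fold change was -0.58 (SE 0.17, edgeR adjusted p = 0.0808). These 4 genes lie in the Gbp cluster of chromosome 3, where Gbp2b stands between Gbp3 and Gbp2.

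Irgm1, a regulatory member of the immunity-related GTPases that controls the effector members and takes part in autophagy (chromosome 11, 48861968 to 48871683, minus strand), fell. It stood at 25.8, 22.4 and 44.7 CPM in Nf803, Nf809 and Nf827 and at 13.8, 10.2 and 10.1 CPM in MiRNC149, MiRNC640 and MiRNC670. The lowest Nf1KO tumour was 1.62-fold above the highest miR155KO_Nf1KO tumour, the widest gap of the 10 genes. The log2 fold change was -1.44 (SE 0.30, 95% interval -2.15 to -0.74, edgeR adjusted p = 0.0313).

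Irgm2 (chromosome 11, 58199618 to 58222782) and Igtp, also called Irgm3 (chromosome 11, 58199556 to 58207591), are the other regulatory members. Irgm2 was at 86.1, 90.7 and 171 CPM in Nf803, Nf809 and Nf827 and at 75.5, 57.4 and 41.4 CPM in MiRNC149, MiRNC640 and MiRNC670. Igtp was at 35.4, 30.5 and 62.4 CPM in the Nf1KO tumours and at 23.2, 26.1 and 17.2 CPM in the miR155KO_Nf1KO tumours, in the same order. In both genes Nf827 stood well above the other tumours, and Nf803 and Nf809 were only slightly above the highest miR155KO_Nf1KO tumour. The log2 fold changes were -0.995 (SE 0.32, edgeR adjusted p = 0.0994) for Irgm2 and -0.95 (SE 0.30, adjusted p = 0.0956) for Igtp. Without Nf827 they were -0.61 and -0.58. The annotated spans of Igtp and Irgm2 overlap on the same strand, and how the authors' counting treated reads in shared exons is not stated.

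Iigp1, an effector GTPase that coats and disrupts the vacuole of Toxoplasma (chromosome 18, 60376027 to 60392634), was at 32.2, 23.6 and 52.6 CPM in Nf803, Nf809 and Nf827. It was at 13.5, 19.2 and 8.79 CPM in MiRNC149, MiRNC640 and MiRNC670. This was the most variable member, with a 2.23-fold range within Nf1KO and 2.18-fold within miR155KO_Nf1KO. Its log2 fold change of -1.39 (SE 0.38) was close to that of Irgm1, but the adjusted p by edgeR was 0.0612.

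Both receptor chains were lower. Ifngr2, the signalling chain (chromosome 16, 91547072 to 91565623), stood at 52.8, 49.5 and 68.4 CPM in Nf803, Nf809 and Nf827 and at 32.5, 26.1 and 31.4 CPM in MiRNC149, MiRNC640 and MiRNC670. The groups were separated by 1.52-fold at their nearest tumours. Ifngr2 averaged 56.9 ± 10.1 CPM in Nf1KO and fell to 29.98 ± 3.44 CPM in the others (log2 fold change -0.92, SE 0.18, 95% interval -1.35 to -0.50, edgeR adjusted p = 0.0273), the smallest adjusted p of the 10 genes.

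Ifngr1, the ligand-binding chain (chromosome 10, 19591949 to 19610229), stood at 98.8, 127 and 134 CPM in Nf803, Nf809 and Nf827. It was at 87.0, 78.3 and 55.4 CPM in MiRNC149, MiRNC640 and MiRNC670. Nf803 and MiRNC149 were only 1.13-fold apart, the narrowest gap of the 10 genes. The log2 fold change was -0.70 (SE 0.20, 95% interval -1.18 to -0.23, edgeR adjusted p = 0.0710).

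The edgeR calls depended on which tumours were included. By edgeR no member was called without MiRNC640, MiRNC670, Nf803 or Nf827, although 10, 8, 10 and 9 members in that order had an unadjusted p under 0.05. Without MiRNC640 the test called 43 of all genes lower and 99 higher, and without each of the other 3 tumours it called 0, with 3240, 3335 and 3265 genes at an unadjusted p under 0.05. Without MiRNC149 it called 3 members and without Nf809 it called 7, with 4475 and 4512 genes at an unadjusted p under 0.05. With all 6 tumours 4163 genes were at that level by edgeR. DESeq2, with all 6 tumours, called all 10 members lower (adjusted p from 6.23e-05 for Gbp3 to 0.0319 for Gbp7) and 1473 of all genes lower.

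Tumours ranked alike across the members. Nf827 was the highest of the 6 tumours for all 10 genes, and MiRNC670 was the lowest for 9 of 10, the exception being Ifngr2, lowest in MiRNC640. Within Nf1KO, Nf809 was the lowest tumour for 7 of the 8 GTPases, and Nf803 for Irgm2. On the log2 scale, the 8 GTPases averaged 0.49 above their Nf1KO mean in Nf827, -0.14 in Nf803 and -0.35 in Nf809, and -0.86, -0.94 and -1.40 in MiRNC149, MiRNC640 and MiRNC670. For the 2 receptor chains the averages spanned less, from 0.22 in Nf827 to -0.97 in MiRNC670.

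Per length of annotated exons, the order of the levels was led by Ifngr1 in both groups. In Nf1KO it was at 42.1 CPM per kb, followed by Irgm2 (31.4), Gbp3 (26.8), Gbp7 (26.8), Igtp (21.2), Gbp2 (18.8), Ifngr2 (15.1), Iigp1 (6.20), Irgm1 (5.33) and Gbp5 (4.0). The ranges over tumours of neighbours in that order overlapped, except between Ifngr2 and Iigp1. In miR155KO_Nf1KO the levels per kb were 25.8 for Ifngr1, 17.9 for Gbp7, 15.7 for Irgm2, 11.0 for Igtp, 10.5 for Gbp2, 9.31 for Gbp3, 7.96 for Ifngr2, 2.37 for Iigp1, 1.97 for Gbp5 and 1.96 for Irgm1. There Ifngr1 lay above Gbp7 in every tumour and Ifngr2 above Iigp1, and the other neighbours overlapped. Gbp3 stood above Gbp2 per kb in all 3 Nf1KO tumours and below it in MiRNC640 and MiRNC670. The exonic length joins all annotated transcripts of a gene, which lowers the value of genes with long minor transcripts such as Gbp5 and Irgm1.

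Close copies could share reads to a limited extent. Of the 50-base windows of each gene's longest coding transcript in GENCODE M21, 12.85% in Gbp7, 12.32% in Igtp, 7.36% in Irgm2 and 4.79% in Gbp3 occurred unchanged in a transcript of another gene. The other genes included Gm43802 and Gbp3 for Gbp7, Irgm2 for Igtp, Igtp for Irgm2 and Gbp7 for Gbp3. In the remaining members the share was between 0% (Ifngr1) and 3.19% (Iigp1). Neither the read length nor the setting for multiply matching reads is given in the sources used here.

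The promoters show what the GTPase genes have in common in sequence. RefSeq promoter windows on GRCm38 (250 bases before to 50 after the start site) were searched on both strands for the GAS motif TTCNNNGAA and for an ISRE core, read as GAAA followed by 2 bases of any kind and GAAA again. An ISRE core was found for all 7 GTPase members with an entry in the table and a GAS motif for 4 of them (Gbp5, Gbp7, Igtp and Irgm2). Over 27025 genes with a promoter window, 3.99% held the ISRE core and 9.55% the GAS motif. Neither receptor chain had either motif in its window. Among the other GTPases of the family, 5 of 8 with an entry held the ISRE core. These matches are letters in a window and were not measured as bound sites. The windows of the 4 members that fell are printed together with that of Irgm2, in which both motifs stand within a few bases of each other. Each is written 5′ to 3′ on the gene's strand with matched letters in capitals, and overlapping matches run together. The windows are Gbp3 at chr3:142559794-142560093 (plus strand, the window of 2 that holds matches), Gbp5 at chr3:142496684-142496983 (plus), Irgm1 at chr11:48871371-48871670 (minus), Irgm2 at chr11:58214727-58215026 (plus) and Ifngr2 at chr16:91546809-91547108 (plus).
Gbp3: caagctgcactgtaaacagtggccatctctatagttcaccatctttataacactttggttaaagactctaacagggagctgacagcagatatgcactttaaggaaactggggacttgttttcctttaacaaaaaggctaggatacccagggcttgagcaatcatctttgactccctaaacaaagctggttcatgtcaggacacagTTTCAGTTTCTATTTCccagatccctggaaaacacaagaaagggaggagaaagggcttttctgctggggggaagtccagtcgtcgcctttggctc
Gbp5: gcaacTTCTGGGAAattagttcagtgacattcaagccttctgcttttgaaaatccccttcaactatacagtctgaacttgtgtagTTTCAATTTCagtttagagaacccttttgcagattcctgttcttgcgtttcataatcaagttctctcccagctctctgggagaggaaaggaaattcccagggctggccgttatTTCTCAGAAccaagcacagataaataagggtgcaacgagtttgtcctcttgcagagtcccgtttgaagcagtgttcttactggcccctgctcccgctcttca
Irgm1: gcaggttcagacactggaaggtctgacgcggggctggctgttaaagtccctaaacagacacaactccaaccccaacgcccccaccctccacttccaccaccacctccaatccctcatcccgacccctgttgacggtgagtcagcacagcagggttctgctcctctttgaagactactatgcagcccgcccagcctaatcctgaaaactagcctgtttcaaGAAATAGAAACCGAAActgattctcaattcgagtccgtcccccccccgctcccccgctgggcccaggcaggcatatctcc
Irgm2: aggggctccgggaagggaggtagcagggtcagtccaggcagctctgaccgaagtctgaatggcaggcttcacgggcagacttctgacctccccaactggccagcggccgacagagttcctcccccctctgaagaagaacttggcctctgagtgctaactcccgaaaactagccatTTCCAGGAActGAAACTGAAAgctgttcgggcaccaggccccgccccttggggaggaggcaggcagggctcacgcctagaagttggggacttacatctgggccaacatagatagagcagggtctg
Ifngr2: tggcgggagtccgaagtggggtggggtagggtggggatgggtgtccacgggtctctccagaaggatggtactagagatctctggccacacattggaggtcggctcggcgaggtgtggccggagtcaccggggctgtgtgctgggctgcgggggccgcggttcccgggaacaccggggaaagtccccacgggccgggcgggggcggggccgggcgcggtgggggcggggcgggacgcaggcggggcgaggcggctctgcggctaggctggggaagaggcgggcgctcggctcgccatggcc

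In Gbp3 the ISRE core occurs in overlapping copies, from -45 to -30 counted from the start site, and in Irgm1 likewise from -30 to -15. In Irgm2 the GAS motif lies at -75 to -67 and the ISRE core at -64 to -55. Igtp has the same arrangement at -45 to -37 and -34 to -25. Gbp5 holds GAS motifs at -245 to -237 and -52 to -44 and an ISRE core at -165 to -156. Of the members with an ISRE core, Gbp3, Gbp5 and Irgm1 fell by edgeR and the other 4 did not pass. Ifngr2, which has neither motif in its window, fell as well.

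Because the study looked for miR-155 targets, the longest annotated 3′ UTR of each member was searched for the seed match of miR-155-5p. A microRNA represses a transcript by pairing its seed with such a site, so targets tend to be higher when it is lost. The mature sequence, from RefSeq on GRCm38 (chr16:84714143-84714165), is written with its seed, bases 2 to 8, in capitals.
miR-155-5p: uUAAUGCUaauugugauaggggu

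A site of 7 bases was found in 4 of the 10 members and an 8-base site in none. In Gbp7 and Ifngr1 the site pairs with bases 2 to 8, the whole seed. In Irgm2 and Ifngr2 it pairs with bases 2 to 7 only and ends in an A opposite the first base of miR-155-5p. Of 14027 tested genes with a 3′ UTR, 14.17% held a site of 7 or 8 bases of either kind. Each site is printed in capitals with its flanks: Gbp7 at chr3:142548150-142548170, Irgm2 at chr11:58221096-58221116, Ifngr1 at chr10:19610175-19610195 and Ifngr2 at chr16:91564519-91564539, all on the plus strand.
Gbp7: tcgcttctaacAGCATTAttt
Irgm2: aagaggagagggGCATTAAct
Ifngr1: cttttttatggAGCATTActt
Ifngr2: gaggggttggggGCATTAAgg

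All 4 of these transcripts had negative log2 fold changes in the tumours without miR-155: -0.58 for Gbp7, -0.995 for Irgm2, -0.70 for Ifngr1 and -0.92 for Ifngr2. The 3′ UTRs of these genes had 3575, 2110, 541 and 2618 bases, beside a median of 1214 over all tested genes. Ifngr1 has been described as a miR-155 target in T cells. Whether miR-155 acts on any of these transcripts in the tumours was not tested, and the sign of a bulk difference does not show it.

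Most other GTPases of the family were lower too, with exceptions. Of 19 listed genes 16 were tested, and 8 fell and 1 rose by edgeR (4 and 1 by voom), with a median log2 fold change of -1.67 where all genes tested had 0.01. Ifi47, also called Irgd, was at 45.1, 24.7 and 70.9 CPM in Nf803, Nf809 and Nf827 and at 14.9, 11.2 and 9.90 CPM in MiRNC149, MiRNC640 and MiRNC670 (log2 fold change -1.96, SE 0.38, adjusted p = 0.0277). Gm12250, known as Irgb10, which helps break bacterial membranes and is annotated as a processed pseudogene in GENCODE M21, fell from 9.98 ± 1.15 to 3.15 ± 0.92 CPM (-1.66, SE 0.30, adjusted p = 0.0254). F830016B08Rik, a predicted Irg gene, fell by 1.82 (SE 0.33) on the log2 scale. Gbp8, named after its values were seen, had the largest fold difference of the list (9.08-fold, log2 fold change -3.18, SE 0.66, adjusted p = 0.0310), and its level in Nf827, 25.6 CPM, was several times that of Nf803 (7.98) and Nf809 (5.32).

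Irgq, a divergent relative of the Irg genes, was the 1 gene of the list that rose. It was at 101, 111 and 94.5 CPM in Nf803, Nf809 and Nf827 and at 166, 154 and 181 CPM in MiRNC149, MiRNC640 and MiRNC670 (log2 fold change 0.71, SE 0.12, edgeR adjusted p = 0.0243). Gbp11, annotated as a polymorphic pseudogene and named after its values were seen, had a log2 fold change of 1.14 (SE 0.41, adjusted p = 0.126), and its level in MiRNC640, 22.4 CPM, was far above the 4.76 to 10.8 CPM of the other 5 tumours. Gbp4 and Gbp10, also named after their values were seen, differed by -0.39 (SE 0.44) and 0.27 (SE 0.92) on the log2 scale, with overlapping groups. No read of Gvin1 was counted in any tumour (0 reads each, so a level of up to 0.238 CPM could be missed in MiRNC670), and Gbp2b and Irgc1 were too low to test. That limit for Gvin1 holds only if its reads could be assigned to it, and the setting for multiply matching reads is not known. Many of these genes are close copies, and the spans of Gbp4, Gbp8 and Gbp9 overlap, so their counts are uncertain.

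**Figure D2:**
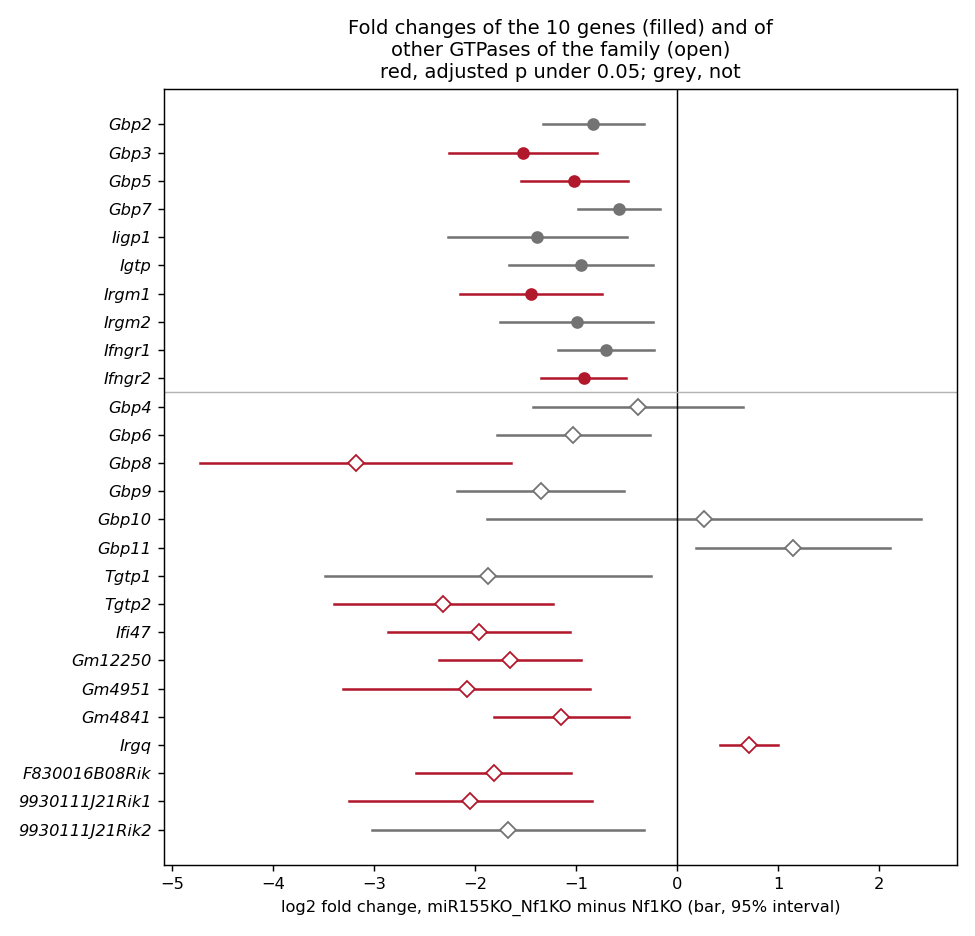
Log2 fold change of each gene, miR155KO_Nf1KO minus Nf1KO (horizontal axis), with its 95% interval, for the 10 genes (filled circles, above the line) and 16 other tested GTPases of the family (open diamonds). Genes with an adjusted p under 0.05 are red: 4 of the 10 genes and 9 of the other 16, of which Irgq lies to the right of 0.

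The receptor's ligand was almost absent from the libraries. Ifng had 1 read in all, in Nf827, so its difference between groups was not detectable at this depth. Along the pathway, 1 of 11 tested signalling genes fell by edgeR (0 by voom and 4 by DESeq2), with a median log2 fold change of -0.45. That gene was Ptpn6, a phosphatase of blood cells that dampens cytokine receptors, at 24.0, 12.1 and 38.0 CPM in Nf803, Nf809 and Nf827 against 7.34, 3.92 and 3.96 CPM in MiRNC149, MiRNC640 and MiRNC670 (-2.28, SE 0.46, adjusted p = 0.0299). Jak2, which is tied to Ifngr2, had a log2 fold change of -0.66 (SE 0.21, adjusted p = 0.092) and Usp18, a brake on type I interferon receptors, of -1.40 (SE 0.41, adjusted p = 0.0726). Jak1, named after its values were seen, had a value of 0.06 (SE 0.10, 95% interval -0.19 to 0.31).

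Most other genes known to be induced by interferon-gamma had lower values too. Of 22 listed genes 17 were tested, 14 had a negative and 3 a positive log2 fold change, 4 fell and none rose by edgeR (voom called 2 lower and DESeq2 8), and the median log2 fold change was -0.91. Ciita, the master regulator of MHC class II genes, fell by 2.27 (SE 0.49) on the log2 scale, Irf8 by 2.07 (SE 0.39), Fcgr1, the high-affinity IgG receptor of macrophages, by 2.38 (SE 0.56) and Serping1, an inhibitor of complement, by 1.04 (SE 0.24). These 4 adjusted p-values by edgeR lay between 0.0263 and 0.0408. The chemokines induced by interferon-gamma, named after their values were seen, had overlapping groups: log2 fold changes were 0.23 (SE 0.80) for Cxcl9, -0.82 (SE 0.34) for Cxcl10 and 1.16 (SE 0.57) for Cxcl11. In Irf1, a transcription factor induced early by interferon-gamma and also named after its values were seen, the groups overlapped (18.5 ± 4.13 and 25.3 ± 7.11 CPM).

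**Figure D3:**
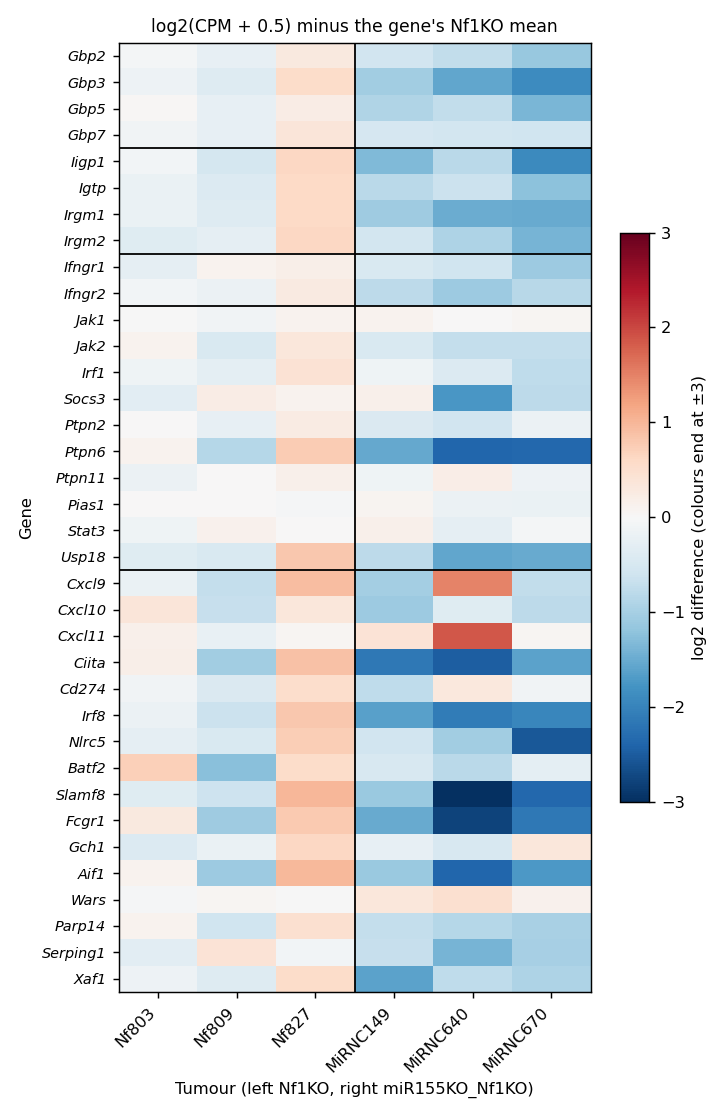
Log2(CPM + 0.5) of tested genes, each minus its Nf1KO mean, in colour, for the 6 tumours (columns, Nf1KO on the left) and, from top to bottom, the Gbp members, the Irg members, the receptor chains, the signalling genes and other induced genes (rows). Colours end at ±3. The 10 genes at the top are blue in every miR155KO_Nf1KO column, while Cxcl9 and Cxcl11 are red in MiRNC640.

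Genes that induce interferon-gamma, and their receptors, were mostly low. Of 15 listed genes 8 were tested and 2 fell by edgeR (1 by voom), both chains of the interleukin-18 receptor. Il18rap was at 11.0, 11.1 and 15.1 CPM in Nf803, Nf809 and Nf827 and at 2.83, 1.55 and 2.06 CPM in MiRNC149, MiRNC640 and MiRNC670 (log2 fold change -2.53, SE 0.32, adjusted p = 0.0186), and Il18r1 fell by 2.09 (SE 0.45, adjusted p = 0.0345). Il27ra and Il15 differed on the log2 scale by -1.37 (SE 0.46, adjusted p = 0.108) and -0.66 (SE 0.24, adjusted p = 0.129). Il12b and Eomes, not tested because of low counts and named after their values were seen, had few reads. Il12b had 11 reads in Nf809, 40 in Nf827 and 0 in the other 4 tumours, and Eomes had 11, 7 and 29 in the Nf1KO tumours and 1, 0 and 0 in the others.

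Among other receptor chains of the same family, 2 of 5 fell by edgeR: Ifnlr1, of the lambda interferon receptor, by 2.26 (SE 0.56, adjusted p = 0.0473) and Il10ra, the interleukin-10 receptor of blood cells, by 2.28 (SE 0.57, adjusted p = 0.0487) on the log2 scale. Neither was called by voom, and 1 of them was called with robust estimation. The type I receptor chain Ifnar2 had a value of -0.46 (SE 0.24, adjusted p = 0.267) and the shared chain Il10rb of -0.41 (SE 0.24, adjusted p = 0.317). The other type I chain Ifnar1, named after its values were seen, had -0.27 (SE 0.15, adjusted p = 0.32). Whether Ifngr2 differed more than Ifnar1 or Ifnar2 was not tested.

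Several macrophage and dendritic cell markers fell along with the members. Few or no lymphocyte markers, which had low counts, passed the test. Of 12 macrophage markers 6 fell by edgeR and none rose, and their summed level was 469 to 918 CPM in miR155KO_Nf1KO and 1334 to 2528 CPM in Nf1KO. Of 9 tested dendritic cell markers 6 fell, with sums of 218 to 367 and 725 to 2850 CPM. Of 12 tested markers of T and natural killer cells 1 fell (Klrd1), with sums of 11.8 to 16.9 and 33.9 to 116 CPM that did not overlap. Of these 12, 7 had an unadjusted p under 0.05 by edgeR, beside 10 of the 12 macrophage markers. The T and natural killer cell markers had 10 negative and 2 positive log2 fold changes. Their median was -2.01, beside -1.58 for macrophage markers. None of 3 tested B cell markers was called by edgeR (1 had an unadjusted p under 0.05, and DESeq2 called 0), and their sums of 1.89 to 3.96 and 3.12 to 13.5 CPM overlapped. Nf827 had the highest sum of these 4 lists and, except for B cell markers, Nf809 the lowest of Nf1KO, the order seen for most GTPases. No marker in these lists was at 0 in all tumours, and their part in the result was not tested.

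Other marker lists went their own way. Of 10 endothelial markers none was called by edgeR in either direction (0 had an unadjusted p under 0.05), and their sums overlapped, at 218 to 410.3 CPM in miR155KO_Nf1KO and 232 to 324 CPM in Nf1KO. Of 8 fibroblast markers 5 fell, with sums of 5213 to 6782 and 11760.3 to 12467 CPM. Of 12 Schwann cell markers 5 rose, with sums of 4546 to 5524 and 2678 to 2862 CPM, and 8 of 10 neuron markers rose, with sums of 5436 to 8593 and 1353 to 2618 CPM. Muscle and adipocyte sums overlapped between groups, and none of their 10 and 8 genes was called by edgeR, where 0 and 1 had an unadjusted p under 0.05. No marker of these lists was at 0 in all tumours either, and their part in the members' levels was not tested.

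Set against these lists, the summed level of the 8 GTPases had a ratio between groups near that of fibroblast markers and below that of macrophage markers. The GTPases summed to 315, 285 and 228 CPM in MiRNC149, MiRNC640 and MiRNC670. In Nf803, Nf809 and Nf827 they summed to 464, 416 and 732 CPM. Their ratio of means, Nf1KO over miR155KO_Nf1KO, was 1.95. Macrophage markers gave 3.00, dendritic cell 6.09, T and natural killer cell 4.44, B cell 2.47 and fibroblast markers 1.93. Endothelial markers gave 0.90, Schwann cell 0.56, neuron 0.27, skeletal muscle 0.95 and adipocyte markers 0.25. The dendritic cell sum was mostly H2-Ab1, named after its values were seen. H2-Ab1 averaged 1217 of 1708 CPM in Nf1KO and 179 of 281 CPM in miR155KO_Nf1KO. In the macrophage sum Itgam, also named after its values were seen, averaged 745 of 1910 CPM in Nf1KO and 137 of 637 CPM in miR155KO_Nf1KO. Per CPM of macrophage markers, Itgam included, the GTPases were higher without miR-155, at 0.343, 0.609 and 0.436 against 0.248, 0.312 and 0.289, with no overlap. That lack of overlap depends on Itgam. Per CPM of fibroblast markers the GTPases were at 0.0464, 0.0548 and 0.0343 against 0.0394, 0.0352 and 0.0587, and the groups overlapped. Per CPM of endothelial markers they were at 1.44, 0.696 and 0.812 against 2.0, 1.29 and 2.77, which also overlapped. These ratios are descriptions with no test, and they share the GTPase sums.

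**Figure D4:**
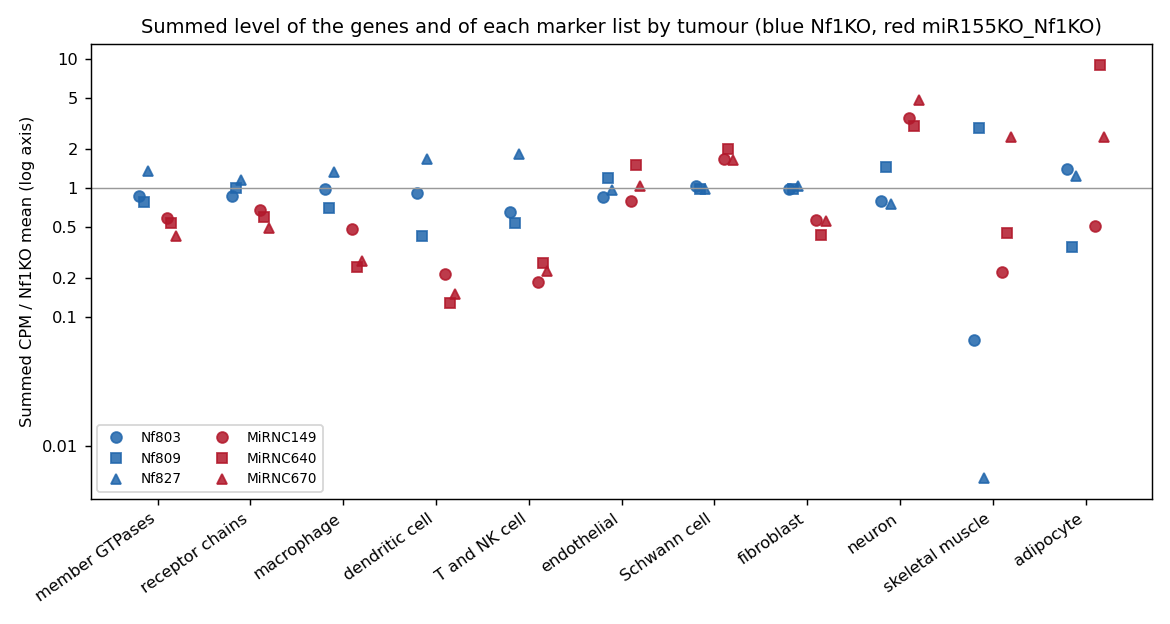
Summed CPM of the 8 GTPases, of the receptor chains and of each marker list, divided by its Nf1KO mean (vertical log axis), with 1 point per tumour (blue Nf1KO, red miR155KO_Nf1KO). The GTPases and receptor chains lie lower in red than in blue, as do macrophage, dendritic cell, T and natural killer cell and fibroblast markers, while endothelial, muscle and adipocyte points overlap and Schwann cell and neuron points lie higher in red.

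Without the muscle-rich tumours MiRNC670 and Nf809, with 2 tumours a group, edgeR called 2 of the members lower, Gbp3 (log2 fold change -1.57, adjusted p = 0.0474) and Ifngr2 (-1.08, adjusted p = 0.0499), and all 10 log2 fold changes stayed negative. In that fit 3747 of 15753 genes tested had an unadjusted p under 0.05.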

How the data were processed

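RNA was measured in 6 neurofibromas. Per the labels' protocols, an RNeasy Plus Micro kit gave total RNA and Nextera XT the libraries. Per the submitters' processing notes, HISAT2 2.0.5 and featureCounts 1.5.2 were used with the build mm10. The authors deposited raw read counts per gene symbol. The sources used here do not give the annotation release, read length or strand setting.

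Genes were kept by filterByExpr in edgeR 4.0.16 (minimum count 10, minimum total 15), which left 15604 of 24421 symbols. Libraries were scaled by TMM, and CPM values were computed on the scaled sizes. The groups were compared with edgeR's quasi-likelihood test (R 4.3.3), with Benjamini-Hochberg adjustment over all tested genes and a threshold of 0.05. The procedure was also run on simulated counts, whose outcome is not reported here. Those counts were drawn separately for each gene, without shared differences in tissue content between tumours. Alternatives were DESeq2 1.42.0, voom in limma 3.58.1, robust estimation, other scalings and filters, and fits that leave tumours out. DESeq2 fits with tumours left out were added after seeing the data. No libraries were duplicates: chi-square per degree of freedom between tumours of a group was 23.17 to 102.2. Intervals of 95% are for the log2 fold change under the fitted model. The labels give no batch.

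The members and gene lists were chosen with earlier results of these data known. The text names all members, the 4 genes of each pathway list with the smallest p-values, genes at 0 reads in every tumour, and the 5 genes nearest in profile, and says where a gene was chosen otherwise. Marker lists are given by counts and sums, and some genes of the lists are not reported here. Acod1 and Gsdme were matched through RefSeq synonyms. Gene positions come from GENCODE M21 (GRCm38, of which mm10 is another name) and sequences from RefSeq on GRCm38.p6 and from GRCm38. A RefSeq promoter was matched for 9 of the 10 members, not for Iigp1.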

Additional observations from a re-analysis of the deposited data

How the results depend on the processing

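All 10 members kept a negative log2 fold change in all 22 alternatives, and of 220 member values 170 kept their side of the threshold, 19 lost the call and 31 gained it. DESeq2 called 10 members lower, with 1473 of all genes lower and 1489 higher, where edgeR called 4 members, 739 and 815. Without MiRNC670 and Nf809 edgeR called 2 members and DESeq2 called 7, where 3747 and 3654 of all genes had an unadjusted p under 0.05. Leaving out each tumour in turn gave 0 to 7 members by edgeR, with 0 to 1059 of all genes lower and 0 to 1183 higher. By DESeq2 it gave 4 to 9 members (8 without MiRNC149, MiRNC640 or Nf803), with 3641 to 4771 of all genes at an unadjusted p under 0.05. The cause was not tested, though these fits have fewer samples. No member was called higher in any alternative. Of 480 counts over 16 lists 395 stayed within 1.5 times, 72 were smaller and 13 larger. No other scaling moved the median log2 fold change of all genes by more than -0.04. No paired analysis was possible because the tumour numbers of the groups have none in common. Depth limits Ifng, where 3 reads correspond to 0.185 to 0.238 CPM.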

Other observations

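Proteins that act with the GTPases at pathogen vacuoles or in inflammasomes moved in both directions. Of 19 listed genes, all tested, 2 fell and 2 rose by edgeR (1 and 2 by voom, 5 and 2 by DESeq2), and the median log2 fold change was -0.05. That median pools unlike genes, some named here after their values were seen. Aim2, Nlrp3, Pycard, Casp1, Casp4, Gsdmd and Il1b were all negative, from -0.65 (Casp4) to -2.75 (Il1b). The rest, Gsdme (0.32) among them, ran from -0.40 (Atg16l1) to 0.91 (Gabarapl2). Casp1, the inflammasome protease, was at 51.5, 50.3 and 50.6 CPM in Nf803, Nf809 and Nf827 and at 24.7, 18.6 and 17.3 CPM in MiRNC149, MiRNC640 and MiRNC670. The Nf1KO tumours were nearly equal, unlike for the GTPases, and Casp1 fell by 1.33 (SE 0.18, adjusted p = 0.0197) on the log2 scale. Aim2, a sensor of DNA in the cytosol, was at 38.5, 18.8 and 62.3 CPM against 12.7, 7.97 and 6.02 CPM (log2 fold change -2.16, SE 0.47, adjusted p = 0.0352). The genes that rose were Gabarapl1 (0.71, SE 0.16, adjusted p = 0.0389) and Gabarapl2 (0.91, SE 0.21, adjusted p = 0.0396), ubiquitin-like proteins of the autophagy machinery that also help to place the GTPases on vacuoles.

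Genes with a profile near that of the 8 GTPases were sought by the root mean square difference of centred log2 CPM over the 6 tumours, among 14333 genes. The nearest were Grn, the precursor of granulins (0.0551), Tor3a, an interferon-responsive torsin (0.0769), Tmem176b (0.0964), Tgfb1, a growth factor (0.107), and Mapkapk3, a kinase (0.112). Grn was at 98.3 CPM on average in miR155KO_Nf1KO and 198 CPM in Nf1KO. Nearest to Ifngr2 were Efemp2 (0.0570), Parp11 (0.0703), Rhog (0.0707), Pcdhb19 (0.0886) and Tmem106a (0.0931). Nearest to Ifngr1 were Map3k8 (0.0766), Wdr24 (0.0850), the ribosomal protein genes Rpl13 (0.0880), Rpl8 (0.0895) and Fau (0.106). Among the members themselves, Igtp was nearest to the mean of the other GTPases (0.148) and Gbp7 farthest (0.343), with Ifngr2 at 0.250 and Ifngr1 at 0.289. These distances rest on 6 tumours and are descriptions with no test.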
